A study of Xenopus tropicalis with 39 samples.

Results

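Animal caps of Xenopus tropicalis embryos that received 500 ng of vegt RNA were compared with caps of embryos that received 200 ng, the last step of a dose series, with 2 libraries at each dose. These 4 of the 39 samples of the series were chosen by their labels alone. Both groups were injected at the 1-cell stage and received no otx1 RNA. Caps were cut at stage 9 (6 hours after fertilization) and harvested at stage 10.5 (7 hours), and polyA RNA was sequenced after Smart-seq2 cDNA synthesis. The other 12 cap libraries came from embryos that received 50 or 100 ng of vegt RNA, from embryos given 25, 50 or 100 ng of otx1 RNA beside 100 ng of vegt RNA, and from uninjected embryos (2 each). No cap library of a control RNA injection was used here, so all controls were uninjected, and no strain is given. Values from 4 vegetal masses, prospective endoderm from embryos injected with a Vegt morpholino (Vegt MO) or uninjected, are set beside the cap results. Masses of embryos given an Otx1 morpholino, or both morpholinos, were part of the same fit and shared its filter, scaling, spread and block. Also set beside the caps are 9 libraries of the 8-cell stage, from animal blastomeres, vegetal blastomeres or whole embryos. The masses were cut and harvested at the same stages as the caps per the series' design text, while their sample titles say stage 10. Morpholinos are antisense oligomers that stop an RNA from being translated or spliced. The doses carry the unit that the labels print, which is high for 1 embryo. The ratio of 2.5 between the doses compared does not depend on it.

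Vegt is a T-box transcription factor whose RNA is laid down in the egg and held at the vegetal pole. It switches on endoderm genes and the Nodal ligands that induce mesoderm, and embryos that lack it form little endoderm. The animal cap is prospective ectoderm and holds little of the factor, so injected vegt RNA turns caps towards mesoderm and endoderm in a way that depends on the amount. The dose series asks which transcripts go on changing with more vegt RNA and which have reached a level that more RNA does not alter.

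Estimated counts summed to between 13690343 and 16377466 in the 4 libraries compared, and to between 8289954 and 18201303 over all 16 cap libraries. The table listed 32234 features, that is, 26550 gene models and 5684 long non-coding RNA (lncRNA) models, and 16360 of them (2458 lncRNA models) had enough counts to be tested. None of the identifiers (0) was found in a reference table of 28858 named genes. Features are therefore named by identifier, nothing is said of what single features do, and markers of ectoderm, mesoderm or endoderm could not be read to check the labelled tissue. How reads were divided between near-identical copies or overlapping models is not known, and no strand setting is given, so an lncRNA model and an overlapping gene cannot be told apart. In RNA from whole caps, fewer cells of a type and less RNA per cell cannot be told apart. Libraries with the same replicate number deviated together in all 28 pairs of cap groups (r between 0.668 and 0.891 over features), so the replicate number was kept as a block.

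No feature could be identified as vegt by name, so the injected RNA was not followed directly. Xetrov90002928m.g, which was picked out with its values known, was at 8218 and 9061 TPM (a length-corrected share of the transcripts in a library) in the 500 ng caps, against 3391 and 2938 TPM in the 200 ng caps. Both 500 ng libraries were above both 200 ng libraries, and the ratio of the means was 2.73, beside the dose ratio of 2.5. Its means over the series were 128, 1090, 2005, 3165 and 8640 TPM at 0, 50, 100, 200 and 500 ng. Its log2 fold change at the last step was 1.48 (95% interval 0.69 to 2.27), which edgeR did not call (adjusted p = 0.249), while DESeq2 did (adjusted p = 0.0138).

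At the last step 15 features rose and 9 fell, which was 0.0917% and 0.055% of the 16360 tested (edgeR quasi-likelihood test with the replicate block, Benjamini-Hochberg adjusted p under 0.05). They were 12 gene models and 3 lncRNA models among those that rose, and 7 gene models and 2 lncRNA models among those that fell. The median log2 fold change of all features, which the scaling holds near 0, was -0.00257, and the central 90% lay between -0.72 and 0.78. Replicate 1 and replicate 2 gave opposite signs for 46.5% of features, while 26.0% were higher and 26.9% were lower at 500 ng in both. At least 2-fold differences in both replicates were seen in 199 features that were higher and 125 that were lower, of which 12 and 5 were called. Features whose 95% interval lay wholly within 1.5-fold either side of no change numbered 7762 (47.4%), and 8574 were neither called nor bounded in this way.

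The number of calls rested on the block and on single libraries. Without the block edgeR called 0 features (243 at an unadjusted p under 0.05, smallest adjusted p = 0.832), although 14 of the 15 and 7 of the 9 had an unadjusted p under 0.05 in that fit. DESeq2 with the block called 70 higher and 47 lower, among them all 24, and limma on log2(TPM + 1) called 7 and 3. Leaving out replicate 2 of the 500 ng caps or of the 200 ng caps gave 0 calls by edgeR (590 and 596 features at an unadjusted p under 0.05). Leaving out replicate 1 of the 500 ng caps gave 23 higher and 10 lower, and leaving out replicate 1 of the 200 ng caps gave 5 and 1. All 24 kept their sign in each of these fits. They had been called from the same libraries, with the same sign in both replicate numbers, so their signs could hardly have changed. Neither this nor the unadjusted p-values without the block are support from separate data.

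**Figure D1:**
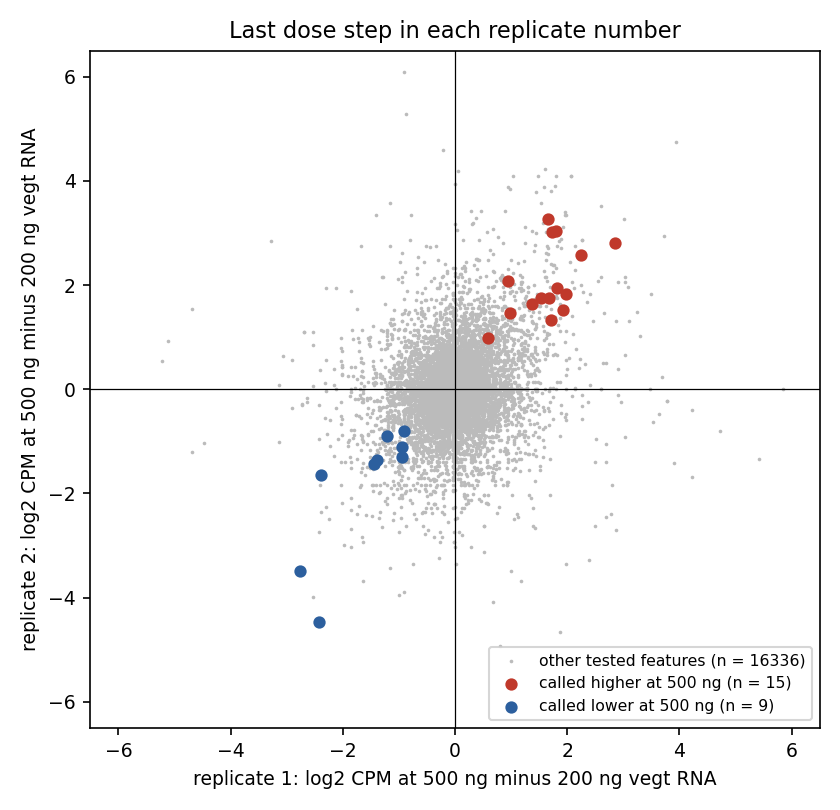
Change at the last dose step in each replicate number, as log2 CPM (counts scaled by library size) at 500 ng minus that at 200 ng of vegt RNA, replicate 1 on the x axis and replicate 2 on the y axis. Each point is 1 of 16360 tested features; the 15 called higher (red) lie in the upper right, the 9 called lower (blue) in the lower left, and the uncalled features (grey) spread to similar distances.

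The 15 features that rose did so by log2 fold changes of 0.79 to 2.95, with a median of 1.79, and 14 of them by 2-fold or more. Their means at 500 ng were 3.12 to 131 TPM, against 0.95 to 31.5 TPM at 200 ng, and in all 15 both 500 ng libraries were above both 200 ng libraries. The share of all features without such overlap was not counted, and the calls were made on these same libraries. Xetrov90005516m.g had 15.6 and 22.0 TPM at 500 ng, against 3.30 and 3.81 TPM at 200 ng. Its libraries from uninjected, 50 ng and 100 ng caps lay between 1.12 and 2.15 TPM, so both 500 ng values stood far above every lower dose. The log2 fold change of the last step was 2.45 (SE 0.25, edgeR adjusted p = 0.00323). Xetrov90017082m.g had 18.7 and 25.3 TPM at 500 ng, against 5.90 and 2.63 TPM at 200 ng. The libraries of each dose differed between themselves, and the groups did not overlap (log2 fold change 2.42, SE 0.38, edgeR adjusted p = 0.038). Both features were those of greatest fold change among called gene models of sufficient level.

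The rising features had reached different points before the last step. Against uninjected caps 7 of the 15 were already called higher at 200 ng and 8 were not, and all 15 were called at 500 ng (1.2% of all features at 200 ng and 2.81% at 500 ng); these comparisons share libraries with the last step. In 7 the mean TPM rose at every dose. Mean TPM stayed within 1.5-fold of the uninjected caps up to 200 ng in Xetrov90006208m.g and Xetrov90018658m.g, which were chosen after their values were seen. Xetrov90006208m.g had 3.44 and 2.80 TPM at 500 ng, against 0.89 and 1.00 TPM at 200 ng, and its means at 0, 50 and 100 ng were 0.80, 0.82 and 0.65 TPM. Xetrov90018658m.g had 37.7 and 70.4 TPM at 500 ng, against 25.5 and 37.6 TPM at 200 ng. Its replicate 1 at 500 ng was about level with its replicate 2 at 200 ng, so its rise showed within each replicate number rather than between the groups as a whole. Xetrov90016156m.g, singled out in the same way, was the model with the second smallest adjusted p. It had 61.1 and 141 TPM at 500 ng, against 18.7 and 18.2 TPM at 200 ng, and means of 3.65, 4.67 and 5.80 TPM at 0, 50 and 100 ng (edgeR adjusted p = 0.00625).

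**Figure D2:**
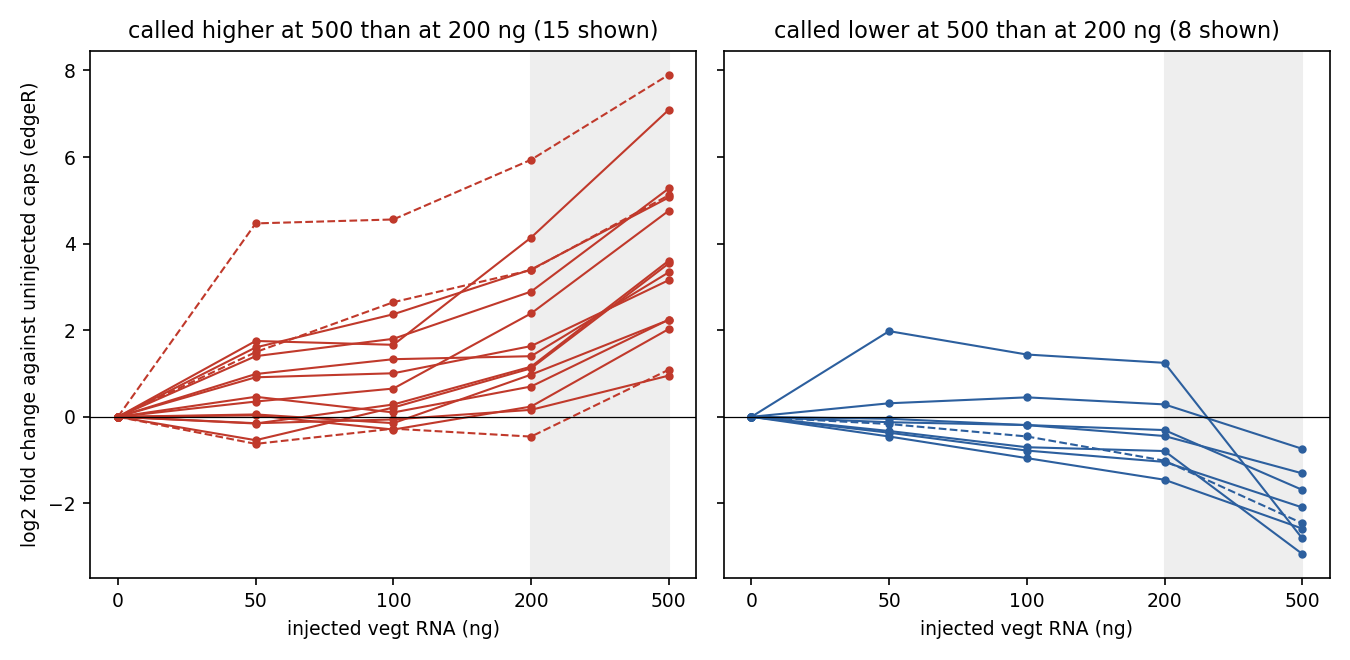
Log2 fold change against uninjected caps (y axis, edgeR with the replicate block) over the injected vegt RNA dose (x axis, ng, doses evenly spaced), for the 15 features called higher (left) and 8 of the 9 called lower (right) at 500 than at 200 ng, with the last step shaded. Solid lines are gene models and dashed lines lncRNA models; the feature with 0 counts at 500 ng is left out, and the lines show that features reach the last step from different starting points.

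The 9 features that fell included lncrna_single_n_00085733, named because it was at 0 counts in both 500 ng libraries, against 10 and 41 counts at 200 ng. With a floor of 3 counts per library it was at least 8.52-fold lower. That bound rested on replicate 2 at 200 ng: it was 3.17-fold without it and 13.9-fold without replicate 1. The other 8 fell by log2 fold changes of -4.05 to -0.86. The median of all 9 was -1.38 and stayed so with the feature at 0 set to its bound. In 8 of the 9 the groups did not overlap, a share that was likewise not counted over all features. The exception was Xetrov90020810m.g, with 2.69 and 6.14 TPM at 500 ng, against 5.23 and 11.3 TPM at 200 ng.

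Xetrov90017828m.g was at 0.10 and 0.44 TPM at 500 ng, against 2.07 and 7.54 TPM at 200 ng (log2 fold change -4.05, SE 0.71, edgeR adjusted p = 0.046). Up to 200 ng of vegt RNA alone it was not lower than in uninjected caps: the 2 replicates had 0.63 and 3.65 TPM uninjected, 4.13 and 10.3 TPM at 50 ng and 1.67 and 10.6 TPM at 100 ng. With 25 ng of otx1 RNA beside 100 ng of vegt RNA they had 0 and 2.92 TPM. With 50 ng of otx1 RNA they had 0.89 and 5.21 TPM, and with 100 ng 4.6 and 23.0 TPM. Xetrov90017828m.g was thus as low in 1 of these libraries as at 500 ng. Its difference between 50 and 100 ng caps and uninjected caps was not called (log2 fold change 1.71, edgeR adjusted p = 0.259), nor was that between 500 ng and uninjected caps (-2.81, adjusted p = 0.0632). Xetrov90011815m.g was at 0.30 and 0.41 TPM at 500 ng, against 2.19 and 1.62 TPM at 200 ng, and at 2.86 and 3.89 TPM in uninjected caps. It was lowest in the 500 ng libraries by a wide margin (log2 fold change -2.38, SE 0.39, edgeR adjusted p = 0.038).

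Among the falling features 3 were already called lower than uninjected caps at 200 ng (0.134% of all features) and 6 were not, 8 were called lower at 500 ng (1.41%), and in 7 the mean TPM fell at every dose. Those called at 200 ng, named after their values were seen, were Xetrov90007905m.g, Xetrov90002706m.g and lncrna-candidate-sw-11746. Xetrov90002706m.g had means of 256, 188, 133, 93.6 and 40.3 TPM at 0, 50, 100, 200 and 500 ng, a decline at each step. Xetrov90020810m.g, Xetrov90014375m.g and Xetrov90012565m.g stayed within 1.5-fold of uninjected caps up to 200 ng. Of these Xetrov90014375m.g was the most abundant, at 209 and 209 TPM in the 500 ng caps, against 409 and 474 TPM in the 200 ng caps, and its mean in uninjected caps was 360 TPM.

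**Figure D3:**
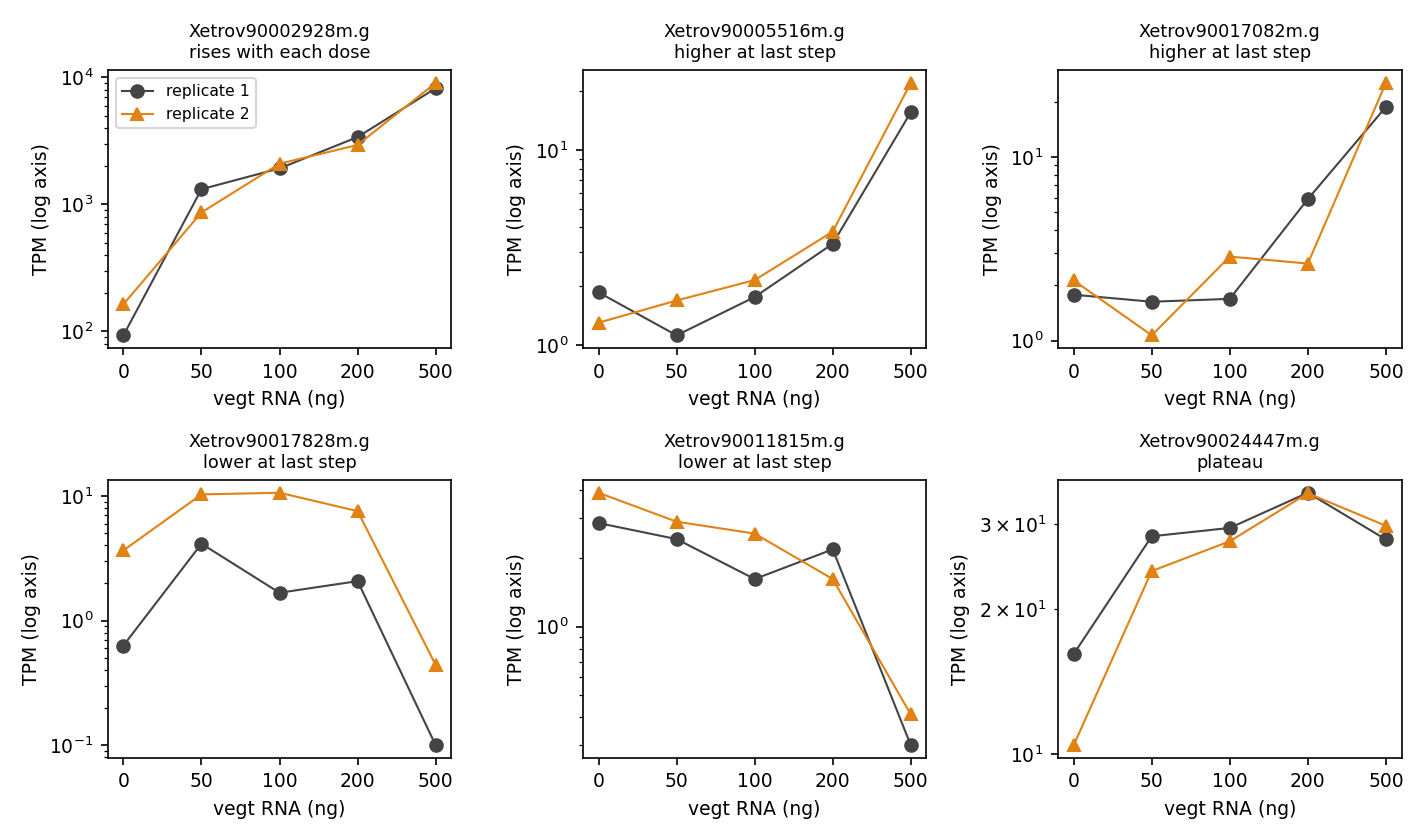
TPM (y axes, log scale, a range of their own in each panel) over the injected vegt RNA dose (x axis, ng) for 6 gene models, with replicate 1 as circles and replicate 2 as triangles. Xetrov90002928m.g rises with each dose, and Xetrov90005516m.g and Xetrov90017082m.g rise and Xetrov90017828m.g and Xetrov90011815m.g fall mainly at the last step. Xetrov90024447m.g lies between 27.8 and 34.8 TPM at 200 and 500 ng, with both 500 ng values below both 200 ng values.

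A plateau or a turn back needs features that had responded to less RNA. These were taken as the 44 features (0.269% of those tested) called higher in the 50 and 100 ng caps, averaged, than in uninjected caps, a contrast that holds neither the 500 nor the 200 ng libraries, although the filter, the spread and the block were estimated over all 16. Another 3 (0.0183%) were called lower. Without the block edgeR called 0 (262 at an unadjusted p under 0.05) and DESeq2 with the block called 144 higher and 14 lower. The 44 became 18 or 23 when replicate 1 or 2 at 100 ng was left out, and 11 or 27 when uninjected replicate 1 or 2 was. Of the 44 early risers, 43 were still called higher than uninjected caps at 200 ng and 41 at 500 ng. Their median log2 fold changes against uninjected caps were 1.12, 1.57, 1.82 and 2.01 at 50, 100, 200 and 500 ng, so the median went on rising by smaller steps. The features were chosen by their 50 and 100 ng values, which can raise the medians at those doses. The smaller later steps therefore do not show a flattening by themselves.

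At the last step itself the 44 early risers had a median log2 fold change of 0.269, against -0.00257 for all features, with 30 positive and 14 negative. By edgeR 1 was called higher, lncrna-candidate-sw-44094, named after its values were seen, and 0 were called lower, beside 0.0917% and 0.055% of all features. At an unadjusted p under 0.05, 14 were higher (31.8%, against 2.81% of all features) and 7 lower (15.9%, against 2.18%). The lncRNA model had 9.98 and 14.6 TPM at 500 ng, against 2.45 and 4.22 TPM at 200 ng, and a mean of 0.04 TPM in uninjected caps (log2 fold change 1.96, SE 0.34, edgeR adjusted p = 0.0469). Both replicate numbers were higher at 500 ng for 26 of the 44 (59.1%, against 26.0% of all features) and both lower for 12 (27.3%, against 26.9%). DESeq2 called 5 of the 44 higher and 2 lower, beside 0.464% and 0.311% of the features it tested, and limma on log2(TPM + 1) called 0. Over the 4 libraries compared alone, edgeR called 9 higher and 2 lower, beside 0.758% and 0.478% of the features tested there. Over the vegt-alone and uninjected caps it called 2 higher and 0 lower, beside 0.139% and 0.0819%. Xetrov90002928m.g, whose TPM was set beside the dose ratio above, was 1 of the 44 and 1 of the 5 that DESeq2 called higher. How far its reads came from the injected RNA itself was not tested.

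A plateau, with the 95% interval of the last step within 1.5-fold of no change, was found for 11 of the 44 early risers (25.0%, against 47.4% of all features), 4 of them lncRNA models. Their last steps lay between -0.21 and 0.33, with 7 positive, and 6 were higher in both replicate numbers and 2 lower in both, so the bound limits the size of a step and does not show that there was none. The greatest was that of Xetrov90011283m.g, named after its values were seen, with 173 and 238 TPM at 500 ng, against 161 and 174 TPM at 200 ng (log2 fold change 0.33, 95% interval 0.09 to 0.57, edgeR adjusted p = 0.537). The other 32 were undecided, since their intervals reached beyond that bound; the median interval of the 44 was 0.436 either side of the estimate. Xetrov90024447m.g had 27.8 and 29.7 TPM at 500 ng, against 34.8 and 34.7 TPM at 200 ng, and 16.1 and 10.4 TPM in uninjected caps. Both of its 500 ng libraries were thus below both 200 ng libraries. All of its injected libraries were above both uninjected ones, and its last step was -0.21 (95% interval -0.52 to 0.09). Xetrov90021441m.g had 2.57 and 3.97 TPM at 500 ng, against 2.92 and 4.25 TPM at 200 ng, and 0.54 and 1.31 TPM in uninjected caps. Its libraries of the 2 doses overlapped, and its last step was -0.09 (95% interval -0.56 to 0.37). The plateau count depended on the bound and on the replicates: it was 22 with a bound of 2-fold and 0 without the block. Leaving out replicate 1 or 2 at 500 ng gave 7 or 6, and at 200 ng 4 or 7.

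A turn back would be a call lower at the last step after a call higher at a smaller dose. In the edgeR fit over 16 libraries this was found for 0 of the 44 early risers. It was also found for 0 of the 197 features called higher at 200 ng than in uninjected caps. Of all features 0.055% were called lower at the last step. With no filter on low counts edgeR called 1 early riser lower, Xetrov90030189m.g, and over the 4 libraries compared it called 2, Xetrov90007322m.g and Xetrov90008015m.g. The same fits called 1 and 9 early risers higher. Nearest to a turn back among the early risers were Xetrov90030189m.g, Xetrov90007322m.g and Xetrov90002121m.g, chosen after their values were seen. Xetrov90030189m.g had 14.5 and 26.0 TPM at 500 ng, against 30.6 and 39.5 TPM at 200 ng, and means of 12.4, 27.5 and 42.5 TPM at 0, 50 and 100 ng. Its highest mean was thus at 100 ng, and both 500 ng libraries were below both 200 ng libraries (log2 fold change -0.80, SE 0.17, edgeR adjusted p = 0.116). Xetrov90007322m.g had 29.5 and 108 TPM at 500 ng, against 56.9 and 169 TPM at 200 ng. Its replicates were far apart at every dose, so the groups overlapped while both replicate numbers went down (-0.75, SE 0.15, edgeR adjusted p = 0.116). Xetrov90002121m.g had 1.16 and 3.49 TPM at 500 ng, against 3.06 and 7.73 TPM at 200 ng (-1.20, SE 0.28, edgeR adjusted p = 0.157). The 2 early risers that DESeq2 called lower were Xetrov90030189m.g and Xetrov90007322m.g. In the 12 early risers lower in both replicate numbers, the median log2 fold changes against uninjected caps were 1.13, 1.65, 1.55 and 1.07 over the 4 doses. In the 26 higher in both they were 1.28, 1.82, 2.25 and 2.95. Both groups were formed by the sign of the last step, so the direction of that step in their medians was fixed by the sorting.

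**Figure D4:**
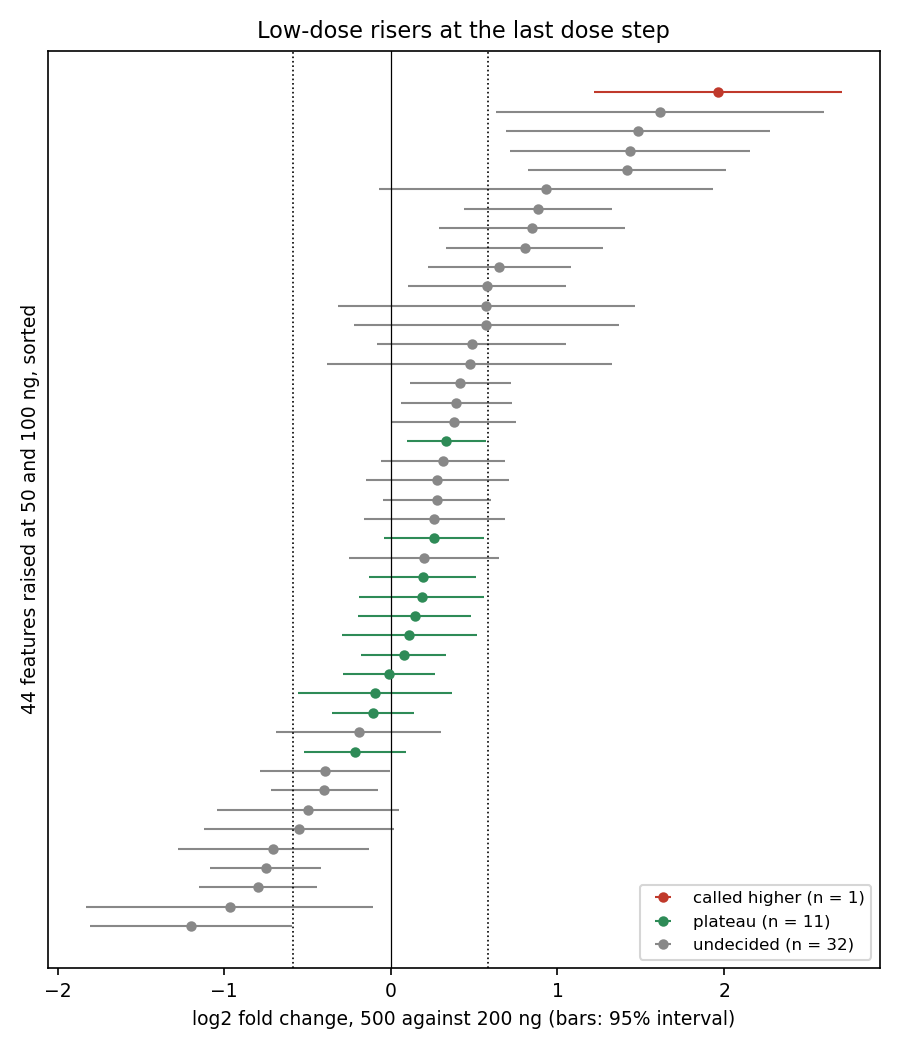
Log2 fold change of 500 ng against 200 ng caps (x axis) with its 95% interval (bars, edgeR with the replicate block) for the 44 features called higher in 50 and 100 ng caps than in uninjected caps, sorted from lowest at the bottom to highest at the top. Dotted lines mark 1.5-fold either side of no change; the 11 plateau features (green) lie between them, 1 feature is called higher (red) and 32 are undecided (grey).

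The change of slope was also tested, as the log2 change per doubling of dose over the last step minus that between 50 and 200 ng. No feature was called (0 of 16360 by edgeR, 409 at an unadjusted p under 0.05, smallest adjusted p = 0.829), limma called 0, and DESeq2 called 1 lower. The slope change was negative in 35 of the 44 early risers (79.5%, against 51.9% of all features). At an unadjusted edgeR p under 0.05, 9 had a negative and 0 a positive slope change. The 50 ng libraries that helped to choose these features are part of the slope change, with a positive weight. A choice of features high at 50 ng can thus raise the slope change rather than lower it.

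The 3 features called lower at 50 and 100 ng were lower at 500 than at 200 ng in both replicate numbers, with last steps of -1.07, -0.97 and -0.39 in Xetrov90008332m.g, Xetrov90002828m.g and Xetrov90009907m.g, none of them called (edgeR adjusted p = 0.124, 0.211 and 1). Over all 16360 features, 8079 had a positive and 8281 a negative last step, and 47.4% met the plateau bound. Calls at the last step were 0.0917% higher and 0.055% lower. The features called at 200 ng against uninjected caps share the 200 ng libraries with the last step, so their counts are only set side by side. Of the 197 called higher (1.2%), 172 had a positive last step, with a median of 0.586. Among them 7 were called higher, and 30 of the 197 (15.2%) met the plateau bound. Of the 22 called lower (0.134%), 19 had a negative last step, with a median of -0.493, and 3 were called lower. These sets numbered 24 and 1 without the block, and the 197 became 66 without 200 ng replicate 1, 84 without uninjected replicate 1 and 122 without uninjected replicate 2. The 22 became 4 and 9 without 200 ng replicates 1 and 2, and 35 and 10 without uninjected replicates 1 and 2.

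Vegetal masses, which hold maternal Vegt, gave a readout from separate libraries. Vegt MO masses had 174 features higher (1.07%) and 254 lower (1.56%) than uninjected masses of 16269 tested (edgeR, replicate block), and 0 and 2 without the block. Leaving out replicate 1 or 2 of the Vegt MO masses gave 66 or 45 higher and 61 or 46 lower, and leaving out replicate 1 of the uninjected masses gave 450 and 469. Of the 15 features that rose at the last cap step, 14 could be tested in masses. In Vegt MO masses their log2 fold changes had a median of -1.22, with 11 of 14 negative (78.6%), against a median of -0.00183 and 50.3% negative over the 14851 features tested in both tables. Called lower in Vegt MO masses were 4 of the 14, Xetrov90017082m.g, Xetrov90025839m.g, lncrna-candidate-sw-44094 and lncrna_single_sw_00035055. Xetrov90025839m.g had 76.7 and 48.9 TPM in Vegt MO masses, against 289 and 131 TPM in uninjected masses (log2 fold change -1.70, SE 0.16, edgeR adjusted p = 0.00116). In caps it had 27.5 and 45.8 TPM at 500 ng, against 9.53 and 14.2 TPM at 200 ng. Xetrov90017082m.g had 0.76 and 5.23 TPM in Vegt MO masses, against 2.76 and 30.9 TPM in uninjected masses, where the replicates lay far apart (log2 fold change -2.35, edgeR adjusted p = 0.0462). Xetrov90005516m.g, by contrast, had 56.1 and 103 TPM in Vegt MO masses, against 45.0 and 95.8 TPM in uninjected masses (log2 fold change 0.17, SE 0.29, edgeR adjusted p = 0.889).

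Of the 9 features that fell at the last cap step, 6 could be tested in masses. In Vegt MO masses their log2 fold changes had a median of 2.62, with 5 of 6 positive. Over the 14851 features tested in both tables the median was -0.00183, with 50.3% negative and 169 called higher. Called higher among the 6 were Xetrov90014375m.g, Xetrov90002706m.g and Xetrov90012565m.g. Xetrov90014375m.g had 122 and 122 TPM in Vegt MO masses, against 9.30 and 11.4 TPM in uninjected masses (log2 fold change 3.51, SE 0.31, edgeR adjusted p = 0.00231). Xetrov90002706m.g had 21.6 and 18.8 TPM in Vegt MO masses, against 0.87 and 0.37 TPM in uninjected masses (5.10, SE 0.54, adjusted p = 0.00384). Xetrov90012565m.g had 21.4 and 11.6 TPM in Vegt MO masses, against 2.92 and 0.53 TPM in uninjected masses (3.44, SE 0.37, adjusted p = 0.00213). In each of the 3 both Vegt MO libraries were above both uninjected ones. That share was not counted over all features, and the 3 were called from these same libraries. Without the block none of these single calls was made in either direction, and the 4 calls among rising features became 1 without either Vegt MO library, 7 without uninjected replicate 1 and 3 without uninjected replicate 2. Among the falling features, leaving out 1 mass library gave 3 or 4 calls. The medians kept their sign throughout.

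Levels in uninjected masses come from a TPM table that was normalised separately from that of the caps. The features that rose had a median of 50.5 TPM in uninjected masses, against 16.4 TPM for all features, and 9 of the 15 were at a higher TPM in uninjected masses than in the 500 ng caps. The features that fell had a median of 0.62 TPM, and 8 of the 9 were under 5 TPM. Neither share was counted over all features, whose median in the 500 ng caps was 12.6 TPM. The early risers lower in both replicate numbers had a median of 0.486 on the log2 scale in Vegt MO masses, with 1 of 12 negative. Those higher in both had a median of 0.0527, with 13 of 26 negative. Of all 44 early risers 34.1% were negative, against 50.3% of all features. By edgeR 4 of the 44 were called higher and 3 lower, beside 169 and 229 of the 14851 features tested in both tables. Among the 4 was the plateau feature Xetrov90024447m.g (log2 fold change 2.61, edgeR adjusted p = 0.00076).

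**Figure D5:**
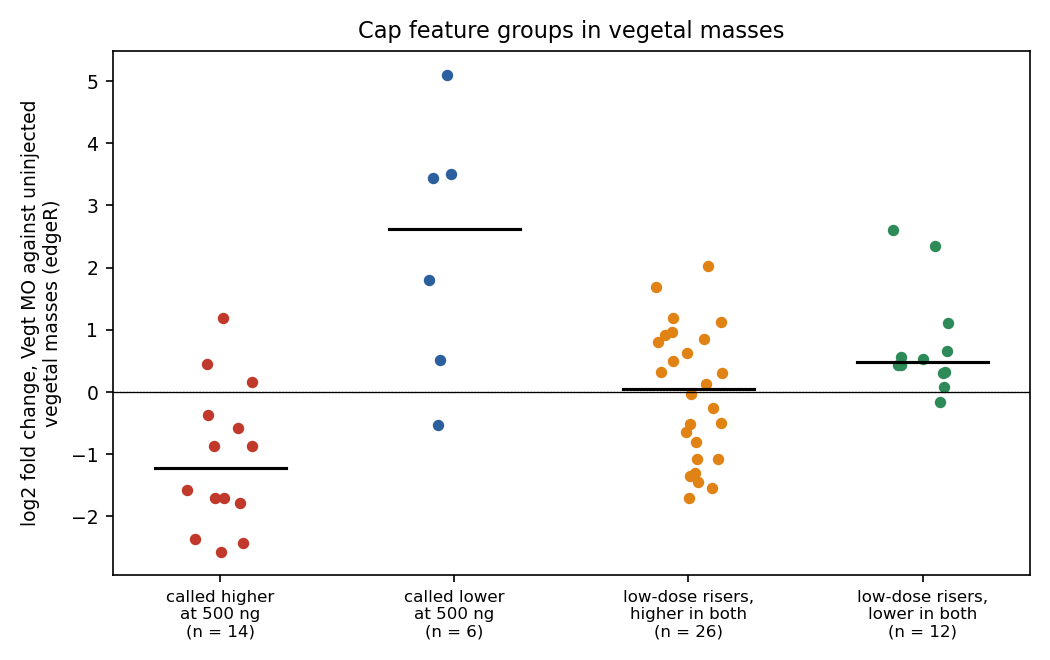
Log2 fold change of Vegt MO against uninjected vegetal masses (y axis, edgeR with the replicate block) for 4 groups of cap features (x axis), each point 1 feature and the line the median. Features called higher at 500 than at 200 ng in caps have a median of -1.22 and those called lower a median of 2.62; the early risers, higher or lower at 500 ng in both replicate numbers, have medians of 0.0527 and 0.486.

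At the 8-cell stage RNA in the embryo is maternal. Averages were taken over all 9 libraries, those of animal blastomeres, vegetal blastomeres and whole embryos together. They were under 0.1 TPM for 6 of the 15 rising features (40.0%), 3 of the 9 falling features (33.3%) and 15 of the 44 early risers (34.1%), against 10.8% of all features. Adding 100 ng of otx1 RNA to 100 ng of vegt RNA gave 48 features higher (0.293%) and 44 lower (0.269%). That contrast holds neither the 500 nor the 200 ng libraries, although the filter, the spread and the block were estimated with them. Its features are compared below with those of the last step. Among the features called with otx1 RNA were 2 of the rising features, Xetrov90016156m.g (log2 fold change 1.71, edgeR adjusted p = 0.0202) and Xetrov90018658m.g (0.86, adjusted p = 0.0113), both higher. Of the falling features Xetrov90011815m.g was higher with otx1 RNA (1.74, edgeR adjusted p = 0.0141) and Xetrov90020810m.g lower (-1.28, adjusted p = 0.00206), so the features that fell at the last vegt step did not share a direction there.

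Transcripts that passed 1 TPM only at 500 ng were also counted, a choice that by itself favours low levels. Of all 32234 features, 40 were at 1 TPM or more in both 500 ng libraries and under 1 TPM in all 8 vegt-alone and uninjected libraries at lower dose. Their median was 2.03 TPM and their highest mean 7.72 TPM at 500 ng, and 11 were lncRNA models. Only 28 of the 40 had enough counts to be tested, and none of them (0) was among the 15 called. The same count was 114 at 50 ng, 31 at 100 ng and 26 at 200 ng, against 2, 4 and 6 libraries at lower dose. In uninjected masses 23 of the 40 were at 1 TPM or more in both libraries. That share was not counted over all features, whose median there was 16.4 TPM among those tested in caps, so it does not set the 40 apart. Against the next lower dose alone, 96 features passed 1 TPM at 500 ng and 129 dropped below it in both libraries, beside 113 and 78 at the step to 200 ng.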

How the data were processed

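The authors deposited, per experiment, a table of expected counts per feature and a table of TPM. RSEM 1.2.12 and Bowtie2 2.2.7 were used, per the submitters' processing notes; the genome build is not given in the sources used here. Expected counts were rounded and tested with edgeR 4.0.16 in R 4.3.3 (TMM, filterByExpr, robust quasi-likelihood), over all 16 cap libraries with the replicate number as a block, which the comparison's definition asks for. The first principal component of the deviations (64.8%) parted the numbers. Replicates at 200 and 500 ng differed beyond sampling noise (chi-square per degree of freedom 87.3 and 113). DESeq2 1.42.0 and limma 3.58.1 were alternatives, and scripts were tested on simulated data. The gene models named first had adjusted p under 0.05, average log2 CPM of at least 1, no overlap in TPM and the greatest fold change (2 per direction; plateau features by the low-dose rise). Members and lists were chosen with earlier results of these data known. Lists of germ layer and germ plasm markers and Nodal ligands by symbol could not be read. Peak lists were not used here. Mass and 8-cell tables were fitted separately, each over all of its libraries. Among these were the masses with Otx1 or both morpholinos and the whole 8-cell embryos.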

Additional observations from a re-analysis of the deposited data

How the results depend on the processing

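With the replicate block, the 15 higher and 9 lower calls of the last step became 0 and 0 with no replicate block, 22 and 13 over the vegt-alone and uninjected caps, 70 and 47 by DESeq2, 7 and 3 by limma on log2(TPM + 1), 0 and 0 by limma on log2(TPM + 0.1) with 846 features at an unadjusted p under 0.05, 15 and 11 with DESeq2 size factors, 25 and 23 with no filter on low counts, and 114 and 72 over the 4 libraries compared. Leaving out 1 replicate gave 0 to 23 higher and 0 to 10 lower, with the lone library taken to vary like the other groups. The median of all features moved by less than 0.1 in the settings without left-out libraries. Of the 24 calls, DESeq2 and the size factors shared 24, no filter 22, the vegt-alone fit 19, the 4 libraries 18 and limma on log2(TPM + 1) 4. The slope change had 0 calls except 1 lower by DESeq2. The 44 higher and 3 lower features at low dose became 0 and 0 with no replicate block, 144 and 14 by DESeq2, 70 and 0 by limma on log2(TPM + 0.1), 44 and 7 over the vegt-alone caps and 49 and 6 with no filter, and 11 to 51 and 0 to 5 without 1 replicate. At 200 ng against uninjected caps, alternatives chosen after seeing the data turned 197 higher and 22 lower into 24 and 1 with no replicate block; lower calls were 55 over the vegt-alone caps and 63 by DESeq2, and without 1 replicate the counts were 66 to 150 and 4 to 35. Of the 44 early risers, 1 called higher became 0 with no replicate block, 0 by limma and 5 by DESeq2. It became 2 over the vegt-alone and uninjected caps and 9 over the 4 libraries. With risers chosen at 50 or 100 ng alone the count was 0 and 3. The 1 call higher was lost when any 1 library of the doses compared was left out. The 0 called lower became 2 by DESeq2, 1 with no filter and 2 over the 4 libraries. The 11 plateau features became 1 with a narrower bound and 22 with a bound of 2-fold, 0 with no replicate block, 2 with risers chosen at 50 ng alone and 4 to 7 without 1 replicate; the 32 undecided became 21 with a 2-fold bound and 5 or 49 with risers chosen at 50 or 100 ng alone. The last step of Xetrov90021441m.g, a plateau feature, was -0.32 to 0.13 without 1 replicate, above 0 without 200 ng replicate 1 and without 500 ng replicate 2 (0.05). In masses, alternatives chosen after seeing the data turned 174 higher and 254 lower into 0 and 2 with no replicate block and 45 to 450 and 46 to 469 without 1 replicate; the 4 rising features called lower became 0 with no replicate block and 1 to 7 without 1 replicate, and the 3 falling features called higher became 0 and 3 to 4. At the 8-cell stage, 129 features called higher and 51 called lower in vegetal than in animal blastomeres became 60 and 3 with no replicate block. The cause of these changes was not tested. With 2 libraries per dose the median standard error of the last step was 0.215 on the log2 scale. The smallest step called was 0.79 in size, with an SE of 0.13, so that size is not a general limit of detection. All smaller steps went uncalled. Most larger steps went uncalled too. Of the features at least 2-fold different in both replicates, 12 of 199 that were higher and 5 of 125 that were lower were called.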
